A study of Mus musculus with 24 samples.

Results

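The genes of glucose uptake, glycolysis and glycogen handling were followed in the heart by RNA sequencing. The set holds 40 genes out of the 40840 gene symbols in the count table, chosen by name as the transporters, enzymes and regulators that carry glucose from the blood to pyruvate, lactate or glycogen. Of these, 39 passed the filter on low counts. Aldoc, the brain-type aldolase, did not, with 0 to 0.437 CPM (counts scaled to library size) in the 24 libraries. RNA came from the tip (apex) of hearts of C57/Bl6J mice of WT genotype, killed on day 3. Each animal had either sham surgery or transverse aortic constriction (TAC), in which a suture tied around a 25-gauge needle narrows the aorta and loads the left ventricle with pressure, and was labelled as normoxia or hypoxia. The 4 groups of 6 mice were normoxia sham, normoxia TAC, hypoxia sham and hypoxia TAC. The labels give no oxygen level, length of hypoxia, sex, age or batch. They number the libraries without saying what the numbers mean. All hypoxia libraries have lower numbers than all normoxia libraries, and within each oxygen condition sham libraries have lower numbers than TAC libraries. Anything that went with this order cannot be told apart from oxygen or surgery. Total counts ran from 10136915 to 15058159 per library.

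Glucose enters a heart cell through glucose transporters, is trapped as glucose 6-phosphate by hexokinase, and is then either stored as glycogen or split by glycolysis into pyruvate. Pyruvate is reduced to lactate and exported, or enters the mitochondria, where pyruvate dehydrogenase commits it to oxidation. The adult heart draws mostly on fatty acids, and many steps of the glucose route have a form typical of muscle and a form found in most cells. Several of these genes are known targets of the hypoxia-inducible factor (HIF), which binds DNA at a short core written ACGTG or GCGTG.

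The promoter windows of 4 members are shown: Ldha, Slc16a3 and Slc2a1, which rose with TAC in normoxia, and Pfkfb2, which was high in hypoxia sham mice. They were picked for high levels in a group and do not stand for the members that fell. Each window runs from 250 bases before to 50 bases after the gene's start in RefSeq (build GRCm38.p6, while the counts were made on GRCm39). Capitals mark matches to ACGTG or GCGTG on either strand, so that CACGT and CACGC are matches on the other strand, and CACGTG holds 2 overlapping matches. Where a gene has several windows (2 for Ldha, with 7 and 2 matches, and 3 for Pfkfb2, with 4, 1 and 1), the window with the most matches is shown. The Ldha window shown is chr7:46845554-46845853 on the plus strand, with 7 matches. The Slc16a3 window is chr11:120948817-120949116 on the plus strand, with 2 matches. The Slc2a1 window is chr4:119108495-119108794 on the plus strand, with 2 matches. The Pfkfb2 window shown is chr1:130715772-130716071 on the minus strand, with 4 matches.
Ldha: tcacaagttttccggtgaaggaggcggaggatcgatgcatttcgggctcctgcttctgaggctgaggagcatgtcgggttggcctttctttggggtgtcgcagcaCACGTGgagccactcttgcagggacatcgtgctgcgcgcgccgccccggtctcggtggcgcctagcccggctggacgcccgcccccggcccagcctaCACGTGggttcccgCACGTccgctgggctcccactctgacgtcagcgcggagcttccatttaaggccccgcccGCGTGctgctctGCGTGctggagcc
Slc16a3: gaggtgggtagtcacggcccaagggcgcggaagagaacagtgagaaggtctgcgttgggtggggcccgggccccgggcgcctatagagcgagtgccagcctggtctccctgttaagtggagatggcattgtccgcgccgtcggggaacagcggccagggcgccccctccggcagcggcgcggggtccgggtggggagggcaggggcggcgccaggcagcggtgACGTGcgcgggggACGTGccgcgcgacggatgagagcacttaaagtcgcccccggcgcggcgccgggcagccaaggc
Slc2a1: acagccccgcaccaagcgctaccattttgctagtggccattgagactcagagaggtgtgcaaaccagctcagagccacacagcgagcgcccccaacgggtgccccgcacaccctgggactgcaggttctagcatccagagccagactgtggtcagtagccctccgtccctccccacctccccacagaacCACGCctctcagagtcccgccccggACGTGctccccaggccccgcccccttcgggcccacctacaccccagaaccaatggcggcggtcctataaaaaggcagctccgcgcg
Pfkfb2: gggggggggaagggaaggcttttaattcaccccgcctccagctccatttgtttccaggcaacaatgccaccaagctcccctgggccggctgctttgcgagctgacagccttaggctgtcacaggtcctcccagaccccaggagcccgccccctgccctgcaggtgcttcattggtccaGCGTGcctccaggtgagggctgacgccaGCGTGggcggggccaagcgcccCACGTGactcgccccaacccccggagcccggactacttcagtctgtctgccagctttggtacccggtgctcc

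Windows were found for 38 of the 40 members (not for Slc2a4 and Pdp1), and 33 of these (86.8%) held at least 1 match. Among all 26994 genes with a window, 12608 (46.7%) did. Counted by window, because some genes have several starts, matches stood in 43 of 59 member windows (72.9%) and in 14358 of all 32817 (43.8%). The member windows were also richer in G and C, at a mean of 59.8% against 53.8%, and the core contains CG. The part of base composition in the difference was not tested. Among members not shown, the window with the most matches held 3 for Pfkm, which fell with TAC in normoxia. It held 1 for Pfkfb1, which also fell there, and 0 for Gpi1, which was higher in hypoxia after TAC. A match describes the letters in the window and is no evidence of binding.

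Of the comparisons made, TAC against sham in normoxia had the most calls. Slc2a1, the glucose transporter of most cells, rose, as did Ldha and Slc16a3, which make and export lactate. The muscle phosphofructokinase Pfkm, the muscle enolase Eno3 and the pyruvate kinase gene Pkm fell. Of 7 genes of pyruvate entry into mitochondria 2 rose and 0 fell (28.6%), close to the 27.4% called among all genes. The 2 were the carrier subunit Mpc1 and Pdk3, a kinase that switches pyruvate dehydrogenase off, and the median change of the 7 was -0.07. Pdk3 had a low level, at 1.37 CPM per kilobase of exon in normoxia sham mice. The kinase Pdk2 lay at 188, and its change of -0.43 was not called. Of the 39 genes tested, 10 rose and 5 fell (38.5%) at an adjusted p under 0.05 in edgeR's quasi-likelihood test over all 24 libraries, against 27.4% of all 15027 genes (16.8% higher, 10.6% lower). The log2 changes of the 39 ran from -1.37 to 2.83, 18 above 0 and 21 below, with a median of -0.04 against 0.01 for all genes. In a fit of only the 12 normoxia libraries 7 rose and 4 fell, against 19% of all genes (11.8% higher, 7.21% lower). In 4 members (Pfkm, Pfkfb1, Pkm, Pgm1) every TAC mouse was below every sham mouse, and in none was every TAC mouse above, against 8.9% of all genes without overlap (5.04% higher, 3.86% lower). Without normoxia TAC 2, the library whose cardiomyocyte markers were lowest, 8 rose and 5 fell, and 11 of the 15 calls remained.

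With TAC in hypoxia, 3 of the 39 rose (Hk1, Slc16a3, Pdk3) and 1 fell (Pfkfb2), against 11.1% of all genes (6.46% higher, 4.68% lower). A fit of only the 12 hypoxia libraries called 5 higher and 3 lower, against 14.6% of all genes (8.03% higher, 6.55% lower). The groups did not overlap for 2 members that were higher after TAC (Slc16a3, Pfkfb3) and 3 that were lower (Pfkm, Pfkfb2, Pygm), against 5.67% of all genes (2.31% higher, 3.36% lower). The median change was 0.06, against 0.01 for all genes. The count rested in part on single mice: it was 1 without hypoxia TAC 3 and 9 without normoxia TAC 2. Normoxia TAC 2 is in neither group compared here and enters through the filter, scaling and spread shared by all groups.

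Hypoxia against normoxia after sham surgery gave no member a call in the fit of all 24 libraries, where 0.166% of all genes were called (0.0865% higher, 0.0799% lower). At an unadjusted p under 0.05 there were 4 members. DESeq2 called 1 and limma voom with sample weights 8. Sham mice varied much less than TAC mice, with a biological coefficient of variation of 0.106 among the 12 sham libraries and 0.323 among the 12 TAC libraries. A fit of only the 12 sham libraries called 7 members higher and 3 lower, against 11.5% of all genes (6.57% higher, 4.93% lower). In 3 members (Hk1, Pfkfb2, Pkm) all hypoxia sham mice were above all normoxia sham mice and in 2 (Pfkfb1, Mpc2) all were below, against 5.02% of all genes without overlap (2.79% higher, 2.23% lower). The results after sham surgery are therefore given with both fits. Markers of other cells moved in the same comparison: the summed level of 5 endothelial markers lay at 609 to 710 CPM in normoxia sham and at 757 to 915 CPM in hypoxia sham mice, and the median sum of 6 erythroid markers was 936 and 1555 CPM. Their part in the differences was not tested.

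After TAC, hypoxia mice had 5 members higher than normoxia mice and none lower, against 11.1% of all genes (4.66% higher, 6.41% lower). These were Hk1, Gpi1, Pfkfb1, Pkm and Pygb. The fit of only the 12 TAC libraries called 0 of 14267 genes, so none of the 5 held there (0 members called), and their adjusted p ran from 0.144 to 0.212. The TAC groups did not overlap for 1 member, Pkm, against 1.46% of all genes (0.599% higher, 0.858% lower). The TAC response differed between oxygen conditions for 1 member, Pfkfb1, against 2.05% of all genes. The comparisons share groups of mice and are not independent of each other.

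**Figure D1:**
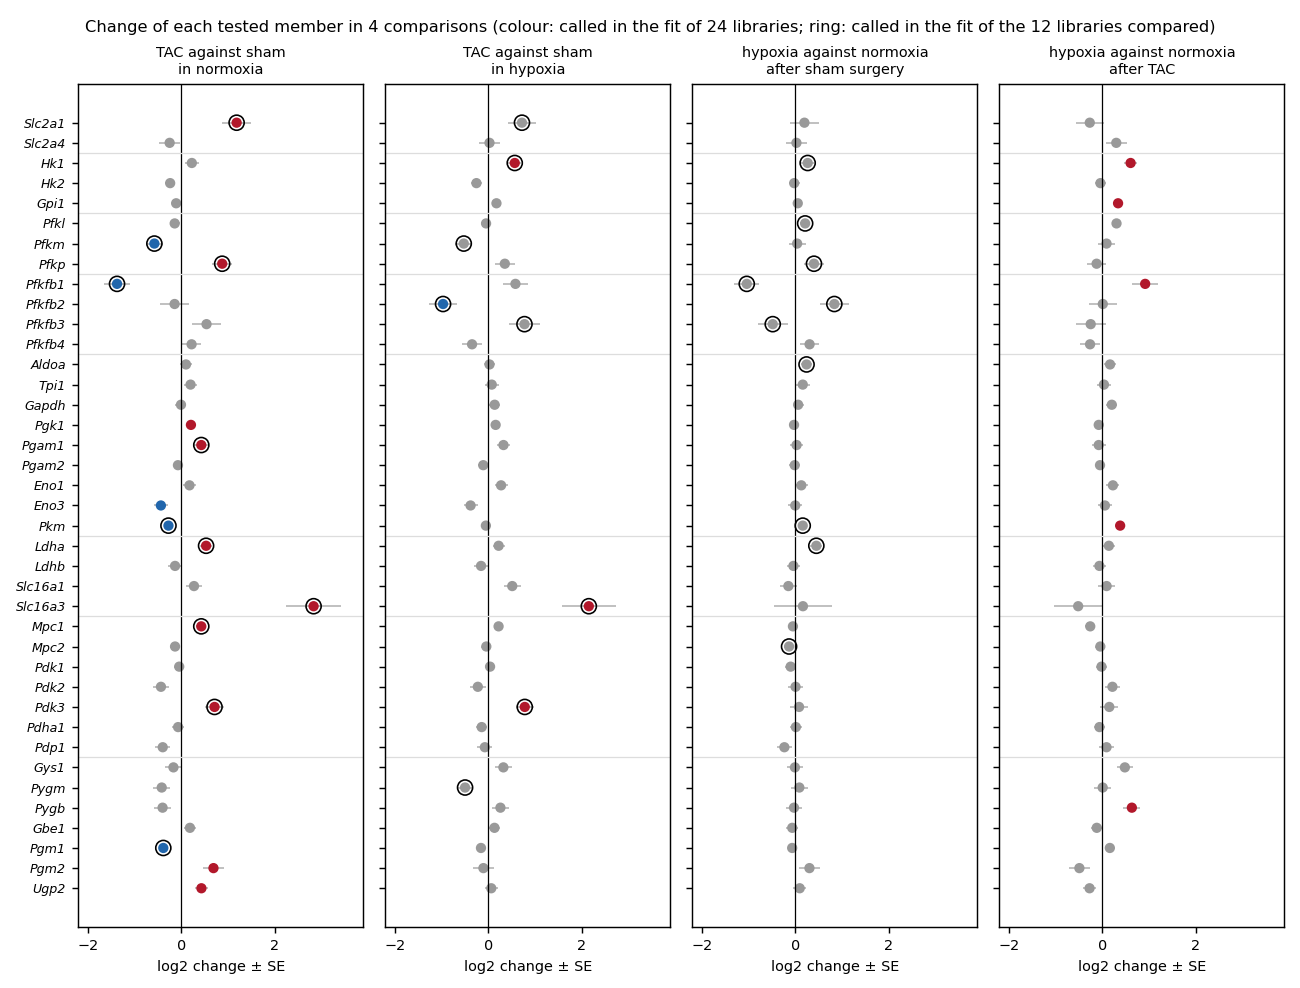
Log2 change of the 39 tested members (x axis) in each comparison, ordered by step of the pathway, with standard errors from the fit of all 24 libraries. Colour marks a call in that fit and a ring a call in the fit of only the 12 libraries compared; calls are most frequent for TAC against sham in normoxia, with 10 higher and 5 lower.

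Glucose transport. Slc2a1 encodes GLUT1, the transporter of most cells, and Slc2a4 encodes GLUT4, the insulin-responsive transporter of muscle and fat. Per kilobase of merged exons (GENCODE annotation of GRCm38), the mean Slc2a4 level in normoxia sham mice was 127 CPM per kb, against 6.25 for Slc2a1. Slc2a1 lay at 16.6, 21.7 and 26.3 CPM (lowest, median, highest) in normoxia sham and at 14.8, 46.7 and 112 CPM in normoxia TAC mice. In hypoxia sham mice it lay at 22, 24.5 and 29.4 CPM, and in hypoxia TAC mice at 23.1, 42.7 and 54.8 CPM. In normoxia 4 of 6 TAC mice stood above every sham mouse and 1 below all of them, and in hypoxia 5 of 6 stood above. Slc2a1 rose with TAC in normoxia by 1.18 ± 0.31 on the log2 scale (2.27-fold, adjusted p = 0.00768). In hypoxia the change was 0.72 ± 0.31 (adjusted p = 0.119 over all libraries, 0.0135 in the fit of the 12 hypoxia libraries). The difference between these responses did not pass (-0.46 ± 0.43, adjusted p = 0.564). Slc2a4 passed in no comparison. Its median was 435 CPM in normoxia sham and 377 in normoxia TAC mice, where it ranged from 111 to 606.

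Hexose phosphates. Hexokinase traps glucose in the cell, Hk2 being the main form of adult muscle and Hk1 that of most tissues, and Gpi1 converts glucose 6-phosphate to fructose 6-phosphate. Hk1 lay at 189, 204 and 221 CPM in normoxia sham and at 167, 236 and 277 CPM in normoxia TAC mice. It lay at 223, 241 and 269 CPM in hypoxia sham and at 228, 339 and 540 CPM in hypoxia TAC mice. Every hypoxia sham mouse was above every normoxia sham mouse, and 5 of 6 hypoxia TAC mice were above all normoxia TAC mice. Hk1 rose with TAC in hypoxia by 0.57 ± 0.14 (adjusted p = 0.0159), a call that ended without hypoxia TAC 3 (adjusted p = 0.0529). After TAC it was higher in hypoxia by 0.61 ± 0.14 (adjusted p = 0.0107, and 0.161 in the fit of the 12 TAC libraries). After sham surgery the difference was 0.27 ± 0.14 over all libraries (adjusted p = 0.682) and 0.27 ± 0.05 among the sham libraries alone (adjusted p = 0.00228). Hk2 passed in no comparison, with changes of -0.24 ± 0.11 for TAC in normoxia and -0.25 ± 0.11 in hypoxia. Gpi1 lay at 332, 386 and 441 CPM in normoxia TAC and at 423, 475 and 624 CPM in hypoxia TAC mice, a difference of 0.34 ± 0.09 (adjusted p = 0.0173, and 0.190 in the fit of the 12 TAC libraries). Its sham groups overlapped, at 380 to 439 CPM in normoxia and 409 to 460 CPM in hypoxia.

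Phosphofructokinase. This enzyme makes the committed step of glycolysis from 3 genes, Pfkm (muscle type), Pfkl (liver type) and Pfkp (platelet type). Pfkm was the most abundant, at 373 CPM per kb in normoxia sham mice against 32.8 for Pfkl and 5.25 for Pfkp. Pfkm lay at 1175, 1228 and 1375 CPM in normoxia sham and at 396, 884 and 1136 CPM in normoxia TAC mice. It lay at 1215, 1272 and 1399 CPM in hypoxia sham and at 548, 982 and 1127 CPM in hypoxia TAC mice. In both oxygen conditions every TAC mouse was below every sham mouse. Pfkm fell with TAC in normoxia by 0.58 (log2 change -0.58 ± 0.18, adjusted p = 0.0213). In hypoxia its change was -0.52 ± 0.18, with an adjusted p of 0.0599 over all libraries and 0.0426 over the 12 hypoxia libraries. Pfkp moved the other way, from 56.7, 72.2 and 80.9 CPM in normoxia sham to 63.7, 128 and 192 CPM in normoxia TAC mice. It rose by 0.88 ± 0.21 (adjusted p = 0.00475), with 5 of 6 TAC mice above all sham mice. In hypoxia Pfkp lay at 75.3, 92.1 and 110 CPM after sham and at 86.1, 104 and 167 CPM after TAC, and the change of 0.36 ± 0.21 did not pass. Among the sham libraries alone Pfkp was higher in hypoxia by 0.40 ± 0.09 (adjusted p = 0.0122) and Pfkl by 0.21 ± 0.06 (adjusted p = 0.0169), and neither passed over all libraries.

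**Figure D2:**
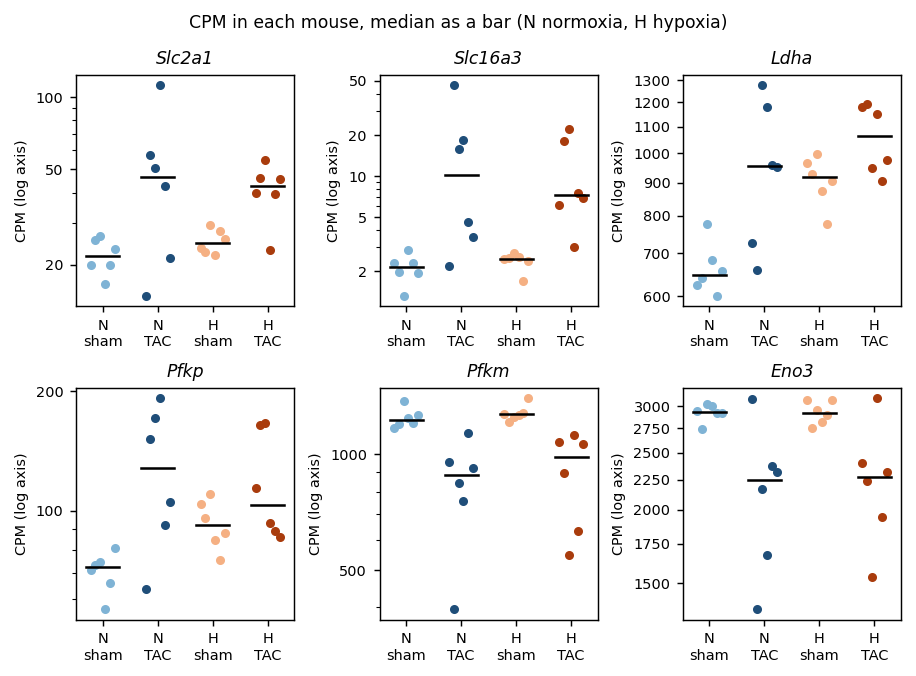
CPM per mouse (log axis) of Slc2a1, Slc16a3, Ldha, Pfkp, Pfkm and Eno3 in the 4 groups of 6 mice, with the median of each group. Every TAC mouse lies below every sham mouse for Pfkm, and the spread of Slc2a1 and Slc16a3 is much wider after TAC, with Slc16a3 reaching 46.5 CPM in normoxia TAC mice.

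Fructose 2,6-bisphosphate. The Pfkfb genes encode enzymes that make and break this activator of phosphofructokinase. Pfkfb2 is the heart form, Pfkfb1 the form of liver and skeletal muscle, and Pfkfb3 and Pfkfb4 are inducible forms. Per kilobase Pfkfb2 was the highest, at 14.1 CPM per kb in normoxia sham mice, followed by Pfkfb1 at 3.77, Pfkfb3 at 1.66 and Pfkfb4 at 0.767. Pfkfb1 lay at 12.2, 16.1 and 16.9 CPM in normoxia sham and at 1.68, 6.42 and 8.66 CPM in normoxia TAC mice. It lay at 5.45, 7.54 and 8.62 CPM in hypoxia sham and at 4.58, 10.5 and 19.3 CPM in hypoxia TAC mice. The normoxia sham mice were above all normoxia TAC and all hypoxia sham mice, while 5 of 6 hypoxia TAC mice were above every hypoxia sham mouse. Pfkfb1 fell with TAC in normoxia (-1.37 ± 0.27, adjusted p = 0.00117) and not in hypoxia (0.58 ± 0.27, adjusted p = 0.148). The difference between these responses was 1.96 ± 0.38 (adjusted p = 0.0173), and it was called in all 24 fits that left out 1 library and in the 5 other alternatives tried for it. After sham surgery Pfkfb1 was lower in hypoxia by 1.04 on the log2 scale in both fits (-1.04 ± 0.27, adjusted p = 0.141 over all libraries, and -1.04 ± 0.12, adjusted p = 3.36e-05 among the sham libraries). After TAC it was higher in hypoxia (0.92 ± 0.27, adjusted p = 0.0309), a call that ended without hypoxia TAC 5, hypoxia TAC 6 or normoxia TAC 4, with adjusted p up to 0.0965.

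Pfkfb2 lay at 88.1, 103 and 112 CPM in normoxia sham and at 165, 180 and 202 CPM in hypoxia sham mice. After TAC it lay at 30.2, 84.3 and 160 CPM in normoxia and at 35.5, 89.0 and 145 CPM in hypoxia. The hypoxia sham mice thus stood above every mouse of the other 3 groups. After sham surgery the difference between oxygen conditions was 0.84 ± 0.06 (adjusted p = 2.24e-07) among the 12 sham libraries, and 0.84 ± 0.30 (adjusted p = 0.429) with the spread of all 24. Pfkfb2 fell with TAC in hypoxia (-0.97 ± 0.30, adjusted p = 0.0423, and 0.0251 over the 12 hypoxia libraries), and the call ended in 16 of the 24 fits that left out 1 library, with adjusted p up to 0.101. In normoxia its change with TAC was -0.14 ± 0.30, and the difference between the responses did not pass (-0.82 ± 0.43, adjusted p = 0.270). Pfkfb3 lay at 7 to 10.3 CPM in hypoxia sham and at 10.8 to 23.6 CPM in hypoxia TAC mice, without overlap. Its change there was 0.78 ± 0.33 (adjusted p = 0.113), or 0.78 ± 0.18 (adjusted p = 0.0170) over the 12 hypoxia libraries. Pfkfb4 stayed between 2.69 and 6.66 CPM in all mice and passed in no comparison.

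**Figure D3:**
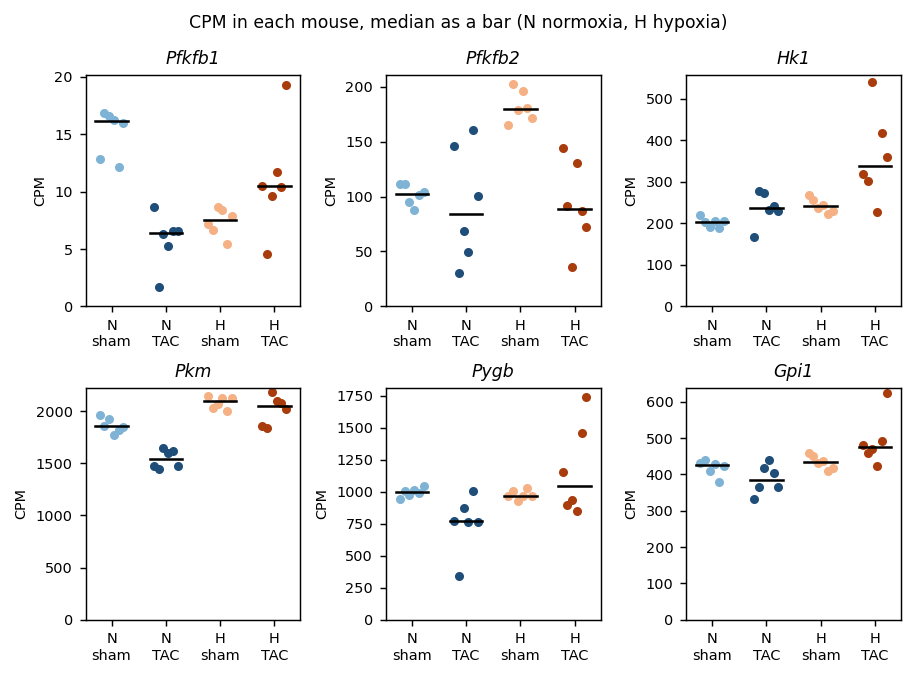
CPM per mouse of Pfkfb1, Pfkfb2, Hk1, Pkm, Pygb and Gpi1 in the 4 groups of 6 mice, with the median of each group. Pfkfb2 lies between 165 and 202 CPM in hypoxia sham mice and at or below 160 CPM in all others, and Pfkfb1 falls with TAC in normoxia but not in hypoxia.

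Lower glycolysis. From aldolase to pyruvate kinase, 9 genes were tested. With TAC in normoxia Pgk1 and Pgam1 rose, and Eno3 and Pkm fell, while Aldoa, Tpi1, Gapdh, Pgam2 and Eno1 passed in no comparison over all libraries. Pkm, which encodes the pyruvate kinases of muscle and of dividing cells from alternative exons that gene counts cannot separate, lay at 1776, 1855 and 1963 CPM in normoxia sham and at 1448, 1541 and 1644 CPM in normoxia TAC mice. It lay at 2005, 2100 and 2146 CPM in hypoxia sham and at 1841, 2051 and 2188 CPM in hypoxia TAC mice. All normoxia TAC mice were below all mice of the other 3 groups, and all hypoxia sham mice were above all normoxia sham mice. Pkm fell with TAC in normoxia (-0.27 ± 0.07, adjusted p = 0.00564), and its change in hypoxia was -0.05 ± 0.07. After TAC it was higher in hypoxia by 0.39 ± 0.07 (adjusted p = 0.00234, and 0.144 in the fit of the 12 TAC libraries). The difference between both TAC responses did not pass (0.22 ± 0.10, adjusted p = 0.187). Among the sham libraries alone the difference between oxygen conditions was 0.16 ± 0.04 (adjusted p = 0.00817).

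Eno3, the muscle enolase, lay at 2742, 2932 and 3024 CPM in normoxia sham and at 1355, 2245 and 3079 CPM in normoxia TAC mice, where 5 of 6 mice were below all sham mice and 1 was above them. It lay at 2751 to 3069 CPM in hypoxia sham and at 1534 to 3091 CPM in hypoxia TAC mice. Eno3 fell with TAC in normoxia (-0.44 ± 0.15, adjusted p = 0.0334), and the call ended in 8 of 24 fits without 1 library. Pgk1, phosphoglycerate kinase, went from a median of 107 (range 99.3 to 113) to 123 CPM (105 to 135) with TAC in normoxia. Its rise of 0.21 ± 0.07 (adjusted p = 0.0371) ended in 10 of those fits. Pgam1, the phosphoglycerate mutase of most tissues, went from a median of 15.7 (12.5 to 17.5) to 19.8 CPM (16.6 to 27.3), a rise of 0.43 ± 0.15 (adjusted p = 0.0310) that ended in 5. In hypoxia sham and TAC mice Pgk1 ranged from 96.3 to 110.4 and from 108 to 123 CPM, and Pgam1 from 13.1 to 19.8 and from 15 to 25 CPM. Pgk1 and Eno3 were also without a call in the fit of the 12 normoxia libraries (adjusted p = 0.113 and 0.0667). Aldoa, the muscle aldolase, was higher in hypoxia than in normoxia among the sham libraries alone (0.24 ± 0.05, adjusted p = 0.00409), with medians of 3937 and 3272 CPM. In normoxia sham and TAC mice the medians were 433 and 558 CPM for Tpi1, triose phosphate isomerase, 777 and 799 for Gapdh, 1092 and 1118 for Pgam2, the muscle mutase, and 203 and 206 for Eno1, the enolase of most tissues. Several of these genes (Gapdh, Pgk1, Pgam1, Eno1, Tpi1, Aldoa and Ldha) have near-identical pseudogenes or retrogenes, and the counting rule for reads that match several places is not given, so their absolute levels are uncertain.

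Lactate. Ldha favours the making of lactate from pyruvate and Ldhb, the heart form, the reverse. Slc16a1 (MCT1) carries lactate in most cells, and Slc16a3 (MCT4) exports it from strongly glycolytic ones. Ldhb had the highest level per length of all members, at 2237 CPM per kb in normoxia sham mice, against 200.4 for Ldha, 40.4 for Slc16a1 and 0.398 for Slc16a3. Ldha lay at 601, 648 and 776 CPM in normoxia sham and at 658, 956 and 1277 CPM in normoxia TAC mice. It lay at 776, 918 and 997 CPM in hypoxia sham and at 906, 1064 and 1192 CPM in hypoxia TAC mice. The normoxia sham group had the lowest median. It overlapped the normoxia TAC and hypoxia sham groups and lay below all hypoxia TAC mice. The other 3 groups overlapped each other. Ldha rose with TAC in normoxia by 0.53 ± 0.13 (adjusted p = 0.00489), and its change in hypoxia was 0.22 ± 0.13 (adjusted p = 0.254). After sham surgery it differed between oxygen conditions by 0.45 ± 0.13 over all libraries (adjusted p = 0.222) and by 0.45 ± 0.06 among the sham libraries alone (adjusted p = 0.000215), with 5 of 6 hypoxia mice above all normoxia mice.

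Slc16a3 had the largest rise among the 39 genes with TAC in both oxygen conditions. It lay at 1.33, 2.14 and 2.86 CPM in normoxia sham and at 2.21, 10.2 and 46.5 CPM in normoxia TAC mice. In hypoxia it lay at 1.70, 2.48 and 2.75 CPM after sham and at 3.00, 7.23 and 22 CPM after TAC. In hypoxia every TAC mouse was above every sham mouse, and in normoxia 5 of 6 were. The rise was 2.83 ± 0.58 in normoxia (7.12-fold, adjusted p = 0.00171) and 2.15 ± 0.58 in hypoxia (4.45-fold, adjusted p = 0.0223). Without normoxia TAC 2, its highest mouse, the rise in normoxia was 2.04 (adjusted p = 0.00627), and without hypoxia TAC 3 the call in hypoxia ended (adjusted p = 0.0710). The difference between the responses did not pass (-0.68 ± 0.81, adjusted p = 0.663). Ldhb (2283 to 4658 CPM over all mice) and Slc16a1 (123 to 325 CPM) passed in no comparison. The closest was Slc16a1 with TAC in hypoxia (0.51 ± 0.18, adjusted p = 0.0637).

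Entry of pyruvate into mitochondria. Mpc1 and Mpc2 form the mitochondrial pyruvate carrier, Pdha1 is a subunit of pyruvate dehydrogenase, the Pdk kinases switch that enzyme off, and the phosphatase Pdp1 switches it on. Mpc1 lay at 396, 403 and 422 CPM in normoxia sham and at 420, 547 and 671 CPM in normoxia TAC mice, and 5 of 6 TAC mice were above all sham mice. It lay at 383, 389 and 414 CPM in hypoxia sham and at 366, 472 and 552 CPM in hypoxia TAC mice. Mpc1 rose with TAC in normoxia by 0.43 ± 0.11 (adjusted p = 0.00507), and the change in hypoxia was 0.22 ± 0.11 (adjusted p = 0.160). Mpc2 passed in no comparison over all libraries. Among the sham libraries alone it was lower in hypoxia (-0.13 ± 0.04, adjusted p = 0.0380), without overlap, at 998 to 1094 against 1099 to 1203 CPM.

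Of the kinases Pdk1, Pdk2 and Pdk3, Pdk3 had calls, from a low level. It lay at 2.33, 3.48 and 4.94 CPM in normoxia sham and at 4.85, 5.43 and 7.20 CPM in normoxia TAC mice. In hypoxia it lay at 3.13, 3.79 and 4.21 CPM after sham and at 3.73, 6.64 and 8.06 CPM after TAC. In each oxygen condition 5 of 6 TAC mice were above all sham mice. Pdk3 rose with TAC by 0.71 ± 0.20 in normoxia (adjusted p = 0.0100) and by 0.78 ± 0.20 in hypoxia (adjusted p = 0.0150), and both calls held in all 24 fits without 1 library. Pdk1 (199 to 334 CPM over all mice), Pdk2 (237 to 679.7), Pdha1 (1104 to 2236) and Pdp1 (44 to 84.4) passed in no comparison. Pdk2 and Pdp1 came nearest with TAC in normoxia, at -0.43 ± 0.17 (adjusted p = 0.0554) and -0.40 ± 0.16 (adjusted p = 0.0642).

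Glycogen. Pgm1 and Pgm2 interconvert glucose 1-phosphate and glucose 6-phosphate (their symbols were exchanged in older mouse nomenclature), Ugp2 makes the UDP-glucose used for glycogen, Gys1 and Gbe1 build the polymer, and the phosphorylases Pygm (muscle) and Pygb (brain type) break it down. With TAC in normoxia Pgm1 fell while Pgm2 and Ugp2 rose. Pgm1 lay at 391, 420 and 457 CPM in normoxia sham and at 222, 330 and 378 CPM in normoxia TAC mice, without overlap. It lay at 376 to 420 CPM in hypoxia sham and 303 to 407 CPM in hypoxia TAC mice, which overlapped. Its change in normoxia was -0.38 ± 0.10 (adjusted p = 0.00697) and in hypoxia -0.16 ± 0.10 (adjusted p = 0.303). Pgm2 went from a median of 11.7 (9.32 to 13) to 16 CPM (9.21 to 30.2), a rise of 0.69 ± 0.23 (adjusted p = 0.0284) that ended without normoxia TAC 2 (0.48, adjusted p = 0.109) and in 4 other fits without 1 library. Ugp2 went from a median of 363 (326 to 438) to 454 CPM (388 to 778), a rise of 0.43 ± 0.14 (adjusted p = 0.0267) that ended in 3 of those fits, that without normoxia TAC 5 among them. In hypoxia the sham and TAC groups overlapped for both, at 9.81 to 18.5 CPM for Pgm2 and 318 to 481 CPM for Ugp2. Neither passed in the fit of the 12 normoxia libraries (adjusted p = 0.0845 and 0.0668).

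Pygb lay at 941, 996 and 1047 CPM in normoxia sham and at 343, 768 and 1007 CPM in normoxia TAC mice. It lay at 926, 969 and 1030 CPM in hypoxia sham and at 849, 1042 and 1741 CPM in hypoxia TAC mice, and 3 of these 6 were above all normoxia TAC mice. After TAC it was higher in hypoxia by 0.64 ± 0.18 (adjusted p = 0.0267), a call that ended without hypoxia TAC 5 or 6 (adjusted p up to 0.0764) and in the fit of the 12 TAC libraries (adjusted p = 0.212). Pygm lay at 996 to 1183 CPM in hypoxia sham and at 570 to 961 CPM in hypoxia TAC mice, without overlap. Its change was -0.50 ± 0.18 (adjusted p = 0.0709) over all libraries and -0.49 ± 0.13 (adjusted p = 0.0249) over the 12 hypoxia libraries. Gys1 (74 to 222 CPM over all mice) and Gbe1 (100.0 to 207 CPM) passed in no comparison. Gys1 came nearest after TAC, where it differed by 0.49 ± 0.18 between hypoxia and normoxia (adjusted p = 0.0721).

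**Figure D4:**
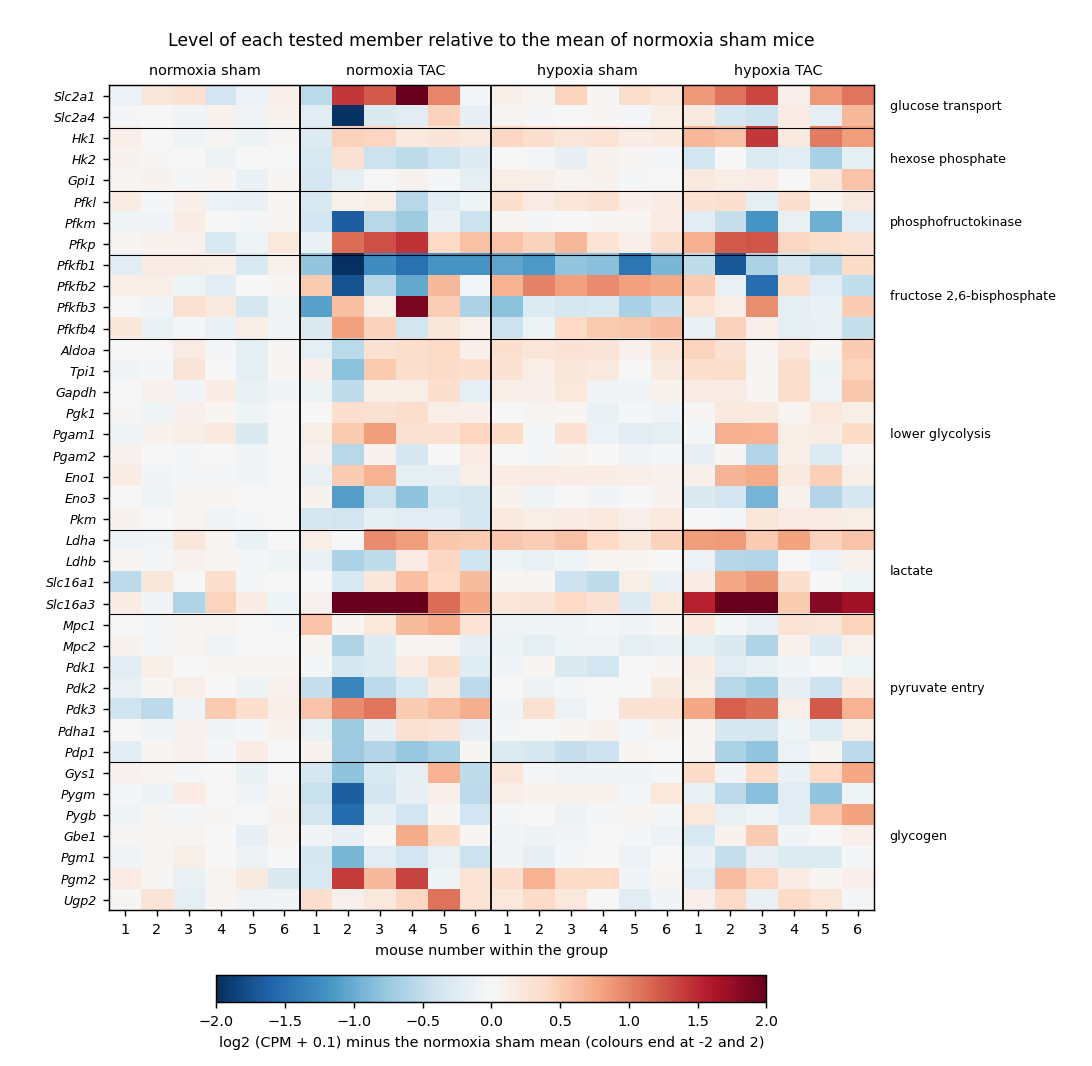
Level of each tested member in each of the 24 mice, drawn relative to the mean of normoxia sham mice on the log2 scale, with members in pathway order and mice in 4 groups of 6. Columns vary less within the sham groups than within the TAC groups, and the normoxia TAC columns differ most among themselves. Hypoxia sham columns are shifted for some members, such as Pfkfb2 (higher) and Pfkfb1 (lower), both without overlap with normoxia sham.

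Ratios between forms of the same step need no scaling between libraries and were compared for 10 pairs by exact two-sided permutation of 6 against 6 mice, adjusted over 40 tests. With TAC in normoxia 4 pairs shifted, and in each the form named first gained on the other. The log2 ratio Pfkp/Pfkm went from -4.15 ± 0.18 in sham (mean ± SD, n = 6) to -2.72 ± 0.99 in TAC mice without overlap (exact permutation, adjusted p = 0.0289). The ratio Ldha/Ldhb went from -2.41 ± 0.10 to -1.73 ± 0.48 (exact permutation, adjusted p = 0.0289). The ratio Hk1/Hk2 was higher by 0.47 (exact permutation, adjusted p = 0.0325) and Pgam1/Pgam2 by 0.51 (exact permutation, adjusted p = 0.0394). With TAC in hypoxia 6 pairs shifted, again toward the form named first. They were Hk1/Hk2 (0.78), Pfkp/Pfkm (0.88), Pfkl/Pfkm (0.52, without overlap), Eno1/Eno3 (0.66), Slc16a3/Slc16a1 (1.33) and Pygb/Pygm (0.73), with exact permutation adjusted p from 0.0289 to 0.0433.

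After sham surgery 3 ratios were higher in hypoxia. The ratio Ldha/Ldhb differed by 0.49 without overlap (-1.92 ± 0.19 against -2.41 ± 0.10, n = 6 each, exact permutation, adjusted p = 0.0289), Hk1/Hk2 by 0.29 and Pfkp/Pfkm by 0.36. After TAC only Pygb/Pygm of the 10 pairs differed between oxygen conditions, by 0.59 (0.58 ± 0.47 in hypoxia against 0.00 ± 0.16 in normoxia, n = 6 each, exact permutation, adjusted p = 0.0394). The smallest p that 924 permutations allow is 0.00216. A ratio shows unequal change of its genes and does not say which of them moved.

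**Figure D5:**
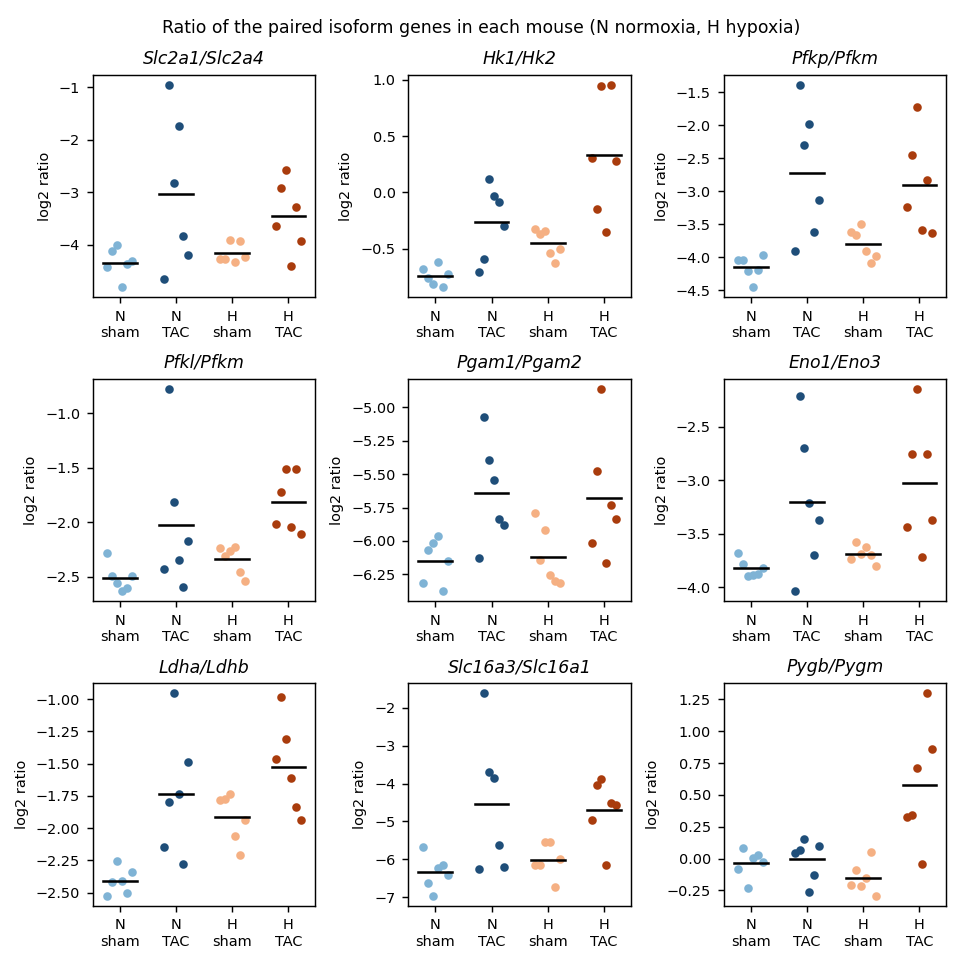
Log2 ratio of CPM between forms of the same step in each mouse for 9 pairs (the pair with Aldoc is not drawn), by group, with group means. Pfkp/Pfkm and Ldha/Ldhb lie higher in normoxia TAC than in normoxia sham mice, with means of -2.72 against -4.15 and -1.73 against -2.41.

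A wider list of 67 tested neighbours (other isoforms, the rest of the pyruvate dehydrogenase complex, glycogen regulators, side routes of glucose and gluconeogenic enzymes) had 9 genes higher and 9 lower with TAC in normoxia, or 26.9%, close to the 27.4% of all genes. Of 22 side-route genes 6 rose and 1 fell (31.8%), and of 20 genes of glycogen turnover 1 rose and 5 fell (30%), against 16.8% higher and 10.6% lower among all genes. The 4 with the smallest p were Gnpnat1 (0.94 ± 0.13, adjusted p = 9.89e-05) and Uap1 (1.58 ± 0.34, adjusted p = 0.00209), enzymes of the hexosamine route that makes UDP-N-acetylglucosamine, Fbp2, the muscle fructose bisphosphatase (-1.15 ± 0.21, adjusted p = 0.000718), and Pdp2, a phosphatase that activates pyruvate dehydrogenase (-1.40 ± 0.28, adjusted p = 0.00126). The hexosamine genes Gfpt1 (0.43 ± 0.15), Gfpt2 (1.24 ± 0.31) and Pgm3 (0.50 ± 0.16) also rose, and were picked for mention after their values were seen.

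With TAC in hypoxia 4 neighbours rose and 2 fell, or 8.96%, against 11.1% of all genes. Those with the smallest p were Pgls of the pentose phosphate route (0.47 ± 0.08), Stbd1, which binds glycogen (1.65 ± 0.31), Gpd1 (0.95 ± 0.24) and Gpd2 (-0.42 ± 0.10), the cytosolic and mitochondrial glycerol 3-phosphate dehydrogenases, with adjusted p from 0.00184 to 0.0175. After sham surgery no neighbour was called between oxygen conditions over all libraries, with 10 at an unadjusted p under 0.05, and the sham libraries alone gave 2 higher and 7 lower of 67, against 6.57% and 4.93% of all genes. After TAC 4 were higher in hypoxia and 4 lower, or 11.9%, against 11.1% of all genes, and none was called in the fit of the 12 TAC libraries. Phka2, a subunit of phosphorylase kinase (0.92 ± 0.18), and Pck2 (0.50 ± 0.14), the mitochondrial form of the carboxykinase of gluconeogenesis, were higher. Gnpnat1 (-0.70 ± 0.13) and Rpe (-0.41 ± 0.11), of the pentose phosphate route, were lower. Against 2.05% of all genes, the TAC responses differed for 2 of the 67, Gnpnat1 (-0.72 ± 0.18, adjusted p = 0.0437) and Fbp2 (1.12 ± 0.30, adjusted p = 0.0476).

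Markers of macrophages, monocytes and neutrophils moved with TAC, more in normoxia than in hypoxia. The summed level of 6 macrophage and monocyte markers, all of which passed the filter, had a median of 173 CPM (158 to 208) in normoxia sham and 496 CPM (244 to 806) in normoxia TAC mice. It was 232 CPM (201 to 271) in hypoxia sham and 258 CPM (167 to 492) in hypoxia TAC mice. Of 5 neutrophil markers 4 passed the filter, and the sum went from a median of 1.70 to 17.7 CPM with TAC in normoxia and from 3.64 to 8.08 CPM in hypoxia. The 6 cardiomyocyte markers summed to 48652 to 52459 CPM in normoxia sham and 23054 to 49528 CPM in normoxia TAC mice, and to 45566 to 50206 and 38222 to 60007 CPM in hypoxia. With TAC in normoxia the markers did not move together. The median of Myh6, the adult myosin, was 25685 CPM in sham and 14545 CPM in TAC mice, without overlap, and that of Ryr2 was 684 and 521 CPM. The medians of Tnnt2 (13216 and 14488), Tnni3 (6309 and 6978), Actn2 (1589 and 1688) and Myl2 (2249 and 2469) were higher after TAC, with overlap.

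Single mice stood out in both kinds of gene. Normoxia TAC 2 had the lowest cardiomyocyte sum (23054 CPM) and the highest macrophage sum of its group (806 CPM). It also had the highest Slc16a3 and Hk1 and the lowest Pfkm, Eno3, Pkm, Pygm and Pygb. Hk2, the main form of adult muscle, was likewise highest in this mouse (418 CPM, the others 237 to 283). Normoxia TAC 1 had the lowest macrophage sum (244 CPM) and the lowest Slc2a1, Slc16a3, Pfkp and Hk1. Hypoxia TAC 3 had the highest macrophage sum of its group (492 CPM) and the highest Slc2a1, Slc16a3, Pfkp and Hk1, and hypoxia TAC 6 the lowest macrophage sum (167 CPM). The mice named here were picked for extreme values, and how marker sums and glucose genes went together over all mice was not tested. Normoxia TAC 4 had the highest Slc2a1 and Pfkp together with the highest cardiomyocyte sum of its group (49528 CPM). Its macrophage sum of 752 CPM was below only that of normoxia TAC 2. Hypoxia TAC 4, and not hypoxia TAC 6, had the lowest Slc2a1, Slc16a3 and Hk1 of that group. Hypoxia TAC 4 also had its lowest cardiomyocyte sum (38222 CPM). The macrophage sum of hypoxia TAC 4 was 231 CPM, against a group median of 258 CPM. Over normoxia sham, normoxia TAC, hypoxia sham and hypoxia TAC mice, the median sums were 873, 1101, 951 and 1022 CPM for fibroblast markers and 647, 523, 823 and 662 CPM for endothelial markers. They were 1359, 1372, 1614 and 1663 CPM for pericyte and smooth muscle markers, and 936, 1221, 1555 and 2703 CPM for erythroid markers. Markers within a sum did not all move together. With TAC in normoxia the medians of Kdr (265 and 150 CPM), Tie1 and Cdh5 were lower, and those of Pecam1 (101 and 115 CPM) and Emcn higher. With TAC in hypoxia Pecam1 was higher and the other endothelial markers lower. Most of the fibroblast sum was Dcn. Its median was higher with TAC in hypoxia (713 and 809 CPM), as was that of Pdgfra, while Lum (109 and 74.6 CPM), Dpt and Tcf21 were lower. The sum of 3 atrial markers was higher in every TAC than in every sham mouse, at 4.35 to 5.59 against 5.99 to 12.6 CPM in normoxia and 4.73 to 6.19 against 6.73 to 11.5 CPM in hypoxia. Nearly all of it was Myl4, while Myl7 and Sln stayed below 1 CPM. Sums over all mice were 1.73 to 8.64 CPM for skeletal muscle, 0.447 to 4.24 for lymphocyte and 0 to 3.79 for adipocyte markers, Myh1 and Plin1 being at 0 in whole groups. The part of these cells in the changes of glucose genes was not tested, and in bulk tissue fewer cells of a type cannot be told apart from less RNA per cell.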

How the data were processed

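Per the labels' protocols, 24 libraries of heart apex were prepared, each with an input of 100 ng of RNA. The authors deposited raw counts per gene symbol, with no normalization. The submitters' processing notes name bcl2fastq 2.20.0.422, STAR 2.7.3a, featureCounts of Subread 2.0.0 and build GRCm39. Settings, strand and annotation release are not given in the sources used here, so reads of antisense partners (such as Hk1os) and near-identical copies cannot be assigned with certainty. The numbered libraries of a group were taken as separate mice. No pair of libraries held identical counts. If the numbers mark technical repeats, p-values measure only that spread.

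From the counts, TMM-scaled CPM and edgeR 4.0.16 (R 4.3.3) robust quasi-likelihood tests were computed with filterByExpr (minimum count 10, minimum total 15; 15027 genes kept), 1 mean per group over all 24 libraries and 20 residual degrees of freedom. P-values were adjusted by Benjamini-Hochberg over all genes tested, and a gene was called under 0.05. The error of a log2 change is its standard error, and that of a ratio is the SD over mice. The biological coefficient of variation was 0.241. Isoform ratios used log2 CPM with a pseudocount of 0.1 (SciPy 1.17.1). In counts simulated for TAC against sham in normoxia (14840 genes), the test recovered 33.3% of 1.5-fold and 81% of 2-fold changes and called 0.0342% of unchanged genes. The simulation gave all genes and all groups the same spread. The real libraries differed, with a coefficient of 0.106 among sham and 0.323 among TAC libraries, so these rates need not hold for them.

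Alternatives were RLE scaling, DESeq2 1.42.0, no low-count filter, limma 3.58.1 voom with sample weights, only the 12 libraries compared, the replicate number as a block, a pseudocount of 0.5, and leaving out each library. Members called in any comparison, and the member of each step with the smallest p, are given by CPM in all groups or by range. Of the neighbours, up to 4 called per comparison with the smallest p are named. Members, lists and tests were chosen with earlier results of these data known. Exon lengths for levels per kilobase come from another build than the counts.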

Additional observations from a re-analysis of the deposited data

Results flagged for a closer look

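In 156 sets of 6 values (39 genes in 4 groups), 14 held a mouse whose gap to its nearest neighbour was large against the range of the group (past the critical value of Dixon's test). Chance marks about 1 in 20 such sets. In normoxia TAC mice, mouse 2 was high for Hk2 (418 CPM, the others 237 to 283) and Slc16a3 (46.5, the others 2.21 to 18.4) and low for Pygb (343, the others 763 to 1007). Mouse 5 of that group was high for Gys1 (209.9, the others 74.0 to 113) and Ugp2 (778, the others 388 to 490.2), and mouse 4 for Pfkfb3 (46.2, the others 5.80 to 18.8). In hypoxia TAC mice, mouse 6 was high for Gpi1 (624, the others 423 to 492).

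Among hypoxia sham mice, mouse 6 was high for Pfkm (1399, the others 1215 to 1282) and Pdk2 (672, the others 557 to 596), mouse 1 for Gys1 (153, the others 124 to 126), and mouse 5 low for Slc16a3 (1.70, the others 2.41 to 2.75). Among normoxia sham mice, mouse 1 was high for Eno1 (230.1, the others 198 to 207) and low for Pdk1 (223, the others 262 to 283), and mouse 5 low for Gbe1 (110.2, the others 125 to 129).

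The TAC response of Pfkfb1 differed between hypoxia and normoxia by 1.96 ± 0.38 on the log2 scale (edgeR's quasi-likelihood test of the difference, adjusted p = 0.0173). Pfkfb1 was lower after TAC in normoxia and not in hypoxia. Hypoxia sham mice already lay below every normoxia sham mouse, and 5 of 6 hypoxia TAC mice lay above every hypoxia sham mouse.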

How the results depend on the processing

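No result changed direction under any alternative run. With TAC in normoxia 15 members were called, and leaving out 1 library gave 11 to 18. With TAC in hypoxia the 4 became 2 without the low-count filter, 10 with voom, 8 with only the 12 libraries compared, and 1 to 9 without 1 library. After sham surgery the 0 became 1 with DESeq2, 8 with voom, 10 with the 12 sham libraries, and 0 to 1 without 1 library. After TAC the 5 became 3 without the filter, 1 with voom, 0 with the 12 TAC libraries, and 3 to 7 without 1 library. The difference between TAC responses gave 1 member, 2 with DESeq2, and 1 to 2 without 1 library. The cause of these differences was not tested, and neither was the part of the unequal spread of sham and TAC mice given above. RLE scaling left every count within 1.5 times. The deviations of same-numbered mice from their group means correlated above 0.1 in 5 of 36 pairs (range -0.31 to 0.35). The highest and the lowest value were both between normoxia TAC and hypoxia TAC mice. No reference was computed for these correlations, so they cannot decide whether the numbers pair the samples. With the replicate block 16, 4, 0, 5 and 1 members were called. Of the pairs of isoforms, 0 passed in each comparison under the replicate block, whose few sign flips cannot reach the threshold. Without 1 library 0 to 7 pairs passed for TAC in normoxia, 2 to 8 in hypoxia, 0 to 4 after sham surgery and 0 to 2 after TAC, with fewer permutations by construction. At this depth, genes under about 10 CPM in all or some groups (Slc16a3, Pdk3, Pfkfb4, Pfkfb3 and Pfkfb1) rest on few counts there. This includes Pfkfb1, the member whose TAC response differed between oxygen conditions. Intervals cover the spread between mice.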
